A study of Mus musculus with 4 samples.

Results

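The cells described here were bone marrow monocytes with the highest RNA of Chil3, Fn1 and Ifitm6, which are called high-scoring cells below. They were chosen by measured values: each cell was ranked within its library by its share of UMIs (unique molecular identifiers, each counting 1 captured RNA molecule) from each of the 3 genes, the 3 ranks were averaged, and the 10% of cells with the highest mean rank were taken in each library. This gave 872 high-scoring cells of 8718 cells that passed the filters (over 200 genes, under 5% mitochondrial UMIs and 1 hashtag with at least 70% of the hashtag UMIs), of 11660 barcodes in all. Of these, 123 came from 1226 male cells and 749 from 7492 female cells. Since the 3 genes chose the cells, their levels in them are a description and were not tested.

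The study compared young and old wild-type C57BL/6 mice of each sex. The bone marrow of each mouse was labelled with its own hashtag antibody and pooled by sex, after which Ly6G- CD11b+ CD115+ Ly6C-high cells (classical monocytes) were sorted from each pool and sequenced as 1 single-cell library per sex. The groups were 5 young males (14 weeks), 5 old males (27 months), 5 young females (15 weeks) and 5 old females (26.5 months), with no further genotype or treatment. The sexes were processed separately, so that sex, experiment and library cannot be told apart, and the mouse was the replicate in every test. No barcode was shared between the libraries (0). The female library was deeper, with a median of 7294 UMIs per high-scoring cell against 3686 in the male library, and it also held counts of 6 surface antibodies.

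Classical monocytes arise in the marrow from dividing progenitors along separate routes. Neutrophil-like monocytes (NeuMo) carry transcripts of the primary granule proteases, while dendritic cell-like monocytes (DCMo) carry those of MHC class II. As the cells mature they leave the cell cycle, lose granule transcripts, take up genes of phagocytosis, adhesion and oxidative burst, and leave the marrow for the blood, guided by the chemokine receptor Ccr2. Chil3 encodes a secreted chitinase-like lectin of myeloid cells, Fn1 encodes the matrix glycoprotein fibronectin, and Ifitm6 belongs to a family of interferon-inducible transmembrane proteins.

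The sequences before the start sites of Chil3 and Ifitm6 are shown because these genes define the cells, and that of Itgam because its product, the integrin chain CD11b, was measured both as RNA and at the surface. They are the 250 bases before the annotated start (RefSeq, GRCm38.p6, read 5′ to 3′ on the strand of the gene) at chr3:106167565-106167814 on the minus strand, chr7:141016893-141017142 on the minus strand and chr7:128062390-128062639 on the plus strand. Fn1 had no entry in the set of promoters used here, so its sequence is not shown.
Chil3: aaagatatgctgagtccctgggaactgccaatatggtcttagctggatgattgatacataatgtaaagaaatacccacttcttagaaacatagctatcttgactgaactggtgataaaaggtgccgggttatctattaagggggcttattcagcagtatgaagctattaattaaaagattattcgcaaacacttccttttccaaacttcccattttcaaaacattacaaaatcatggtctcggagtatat
Ifitm6: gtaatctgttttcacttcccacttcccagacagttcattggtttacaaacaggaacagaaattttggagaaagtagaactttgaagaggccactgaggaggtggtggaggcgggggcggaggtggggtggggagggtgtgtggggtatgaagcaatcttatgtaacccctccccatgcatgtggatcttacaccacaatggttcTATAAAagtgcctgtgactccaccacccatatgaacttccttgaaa
Itgam: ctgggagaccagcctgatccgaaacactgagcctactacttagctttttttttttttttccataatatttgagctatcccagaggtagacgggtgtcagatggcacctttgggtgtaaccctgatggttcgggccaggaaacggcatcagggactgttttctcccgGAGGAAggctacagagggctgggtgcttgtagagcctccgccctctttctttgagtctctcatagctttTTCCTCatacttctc
Capitals mark matches to 3 motifs that were searched on both strands: GAGGAA (the core bound by PU.1), TTGCNNAA (bound by C/EBP factors) and TATAAA (the TATA box). Ifitm6 held 1 TATAAA and Itgam held 2 GAGGAA, the second on the opposite strand, while Chil3 held 0 matches, and no matches overlapped. Of 32851 promoters of the same length, 23.3% held GAGGAA, 9.56% TTGCNNAA and 12.4% TATAAA.

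The 3 score genes were captured at low numbers per cell. High-scoring female cells held a median of 21 UMIs of Chil3, 18 of Fn1 and 7 of Ifitm6, against 3, 10 and 3 in the other female cells. High-scoring male cells held medians of 12, 6 and 4, against 0, 2 and 2. Summed over cells, Chil3 was at 3264 CPM (UMIs scaled to a common library total) in high-scoring female cells and 1057 in the others, and at 4537 and 1265 CPM in males. The score took cells that were high in 1 gene more often than cells that were high in all: 404 of the 749 female cells were in the top 10% of their library for 1 of the 3 genes, 181 for 2, 16 for all 3 and 148 for 0. In males these counts were 71, 21, 3 and 28 of 123. The last male cell inside the cut scored 76.20 and the first outside 76.14, on a scale of ranks in percent, and the corresponding female scores were 76.39 and 76.37, so the cut fell in a continuous range.

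The high-scoring cells held RNA of the sorted monocytes' identity genes. The 8 genes of classical monocyte identity, led by Lyz2 (lysozyme), summed to between 36797 and 49637 CPM in the 10 females, against 22753 to 29424 CPM in the other cells of the same mice. In the 7 males with at least 5 high-scoring cells the sums were 35664 to 54540 and 22992 to 37255 CPM, but Ly6c2, which encodes Ly6C, and Spi1, which encodes PU.1, were lower in the high-scoring cells of every male, and 3 of the 8 genes were higher. Csf1r, which encodes the sorting antigen CD115, was at a median of 357 CPM over the females, and Itgam at 246 CPM. Neutrophil markers (13 genes) summed to 447 to 728 CPM in high-scoring female cells, led by Cd177, and to 504 to 1938 CPM in male cells, led by S100a8. Markers of several other marrow cells were lower: the basophil markers (6 genes, led by Mcpt8) reached at most 2.09 CPM in high-scoring female cells, the conventional dendritic cell markers (6 genes, led by Flt3) at most 12 CPM, the erythroid markers (7 genes, led by Hbb-bs) at most 23.2 CPM and the B cell markers (6 genes, led by Cd79b) at most 29.3 CPM. In males these 4 lists, in the same order, reached 65.6, 16.4, 27.8 and 38.0 CPM at most. The macrophage markers (9 genes, led by Adgre1) were at a median of 107 CPM in females, and plasmacytoid dendritic cell markers at 287 CPM, nearly all of it Bst2. T and NK cell markers (9 genes) had a median of 9.78 CPM over the females, but reached 507 CPM in old female 2, of which 443 CPM was Ccl5 over 25 cells, and 128 CPM in young female 4. Without cells that held at least 2 T, NK, B cell or basophil marker genes, 102 genes were called by age in female high-scoring cells, against 101 with them, and the share of high-scoring cells by age in males, described next, differed by -8.75 points (exact permutation test, adjusted p = 0.0476).

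The share of high-scoring cells was lower in old males than in young males and did not differ detectably by age in females. In the 5 young males they made up 13.6, 14.2, 10.0, 15.7 and 13.9% of the cells of each mouse, and in the 5 old males 7.28, 1.72, 11.1, 0 and 1.79%. Old male 3, at 11.1%, lay within the range of the young males, and the other old males lay below it. The means were 4.38% ± 4.66 (SD, n = 5) in old and 13.5% ± 2.12 (n = 5) in young males, a difference of -9.10 percentage points (two-sided exact permutation test, p = 0.0159, Benjamini-Hochberg adjusted p = 0.0317 over both sexes). The old male with 0 high-scoring cells had only 49 cells, which allows a share of up to 6.12%, and 4.08% of its cells had low cell-cycle RNA (at or below the library median of the summed S phase, G2 and mitosis lists), against 41.4 to 57.8% in the other old males. Without this mouse the difference was -8.01 points, with an adjusted p of 0.0317 in the same exact permutation test. In females the shares were 8.75, 5.83, 12.3, 15.1 and 6.80% in old and 11.3, 12, 9.88, 7.57 and 8.02% in young mice, with means of 9.76% ± 3.88 and 9.74% ± 1.94 (n = 5 each, exact permutation p = 0.992). The direction of the female difference depended on the score, at -4.56 points without Chil3 and 3.87 points without Fn1 (adjusted p = 0.119 and 0.127, exact permutation tests). The groups overlapped, and the spread was wider among the old females.

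**Figure D1:**
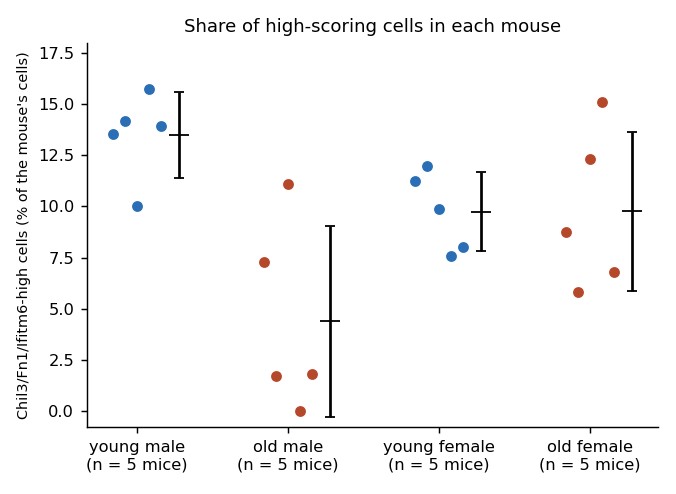
Share of high-scoring cells (y axis, percent of the cells of each mouse) in the 4 groups of 5 mice. Points are mice, with the mean and SD beside them. 4 of the 5 old males lie at or below 7.28%, under all young males, while the female groups overlap.

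The age differences of the sexes were set against each other by permuting the ages within each sex. The old minus young difference was 9.12 points higher in females than in males (exact permutation p = 0.0256 over 63504 assignments). This call was lost with a score without Chil3, at 3.30 points (p = 0.507), with the highest 5% of cells, at 4.28 points (p = 0.114), and, by less, at 8.33 points with hashtag shares of 90% or more, at 8.35 points without cells of other types and at 7.79 points without old female 4 (p = 0.0515, 0.0513 and 0.0534, exact permutation tests). Since each sex was 1 library, this difference and any difference between the 2 experiments cannot be told apart. The male call did not hold under several other settings. With a score without Fn1 the male difference was -4.45 points (adjusted p = 0.151, exact permutation test). Among cells of low cell-cycle RNA it was -12.6 points (adjusted p = 0.0794, exact permutation test), where old male 4 held only 2 cells but counted like the other mice.

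Over all cells of each mouse, the score genes moved in different directions with age. In females Chil3 was at 2665, 1069, 1248, 1551 and 1124 CPM in old and 680, 920, 842, 777 and 718 CPM in young mice, so that the lowest old female lay above the highest young female. The difference was 0.95 ± 0.20 on the log2 scale (SE, edgeR quasi-likelihood test, adjusted p = 0.0122), in a comparison that called 2.64% of 10372 genes higher and 2.5% lower in old females. Fn1 was lower in old females by a log2 fold change of -0.39 ± 0.11, which missed the threshold (edgeR adjusted p = 0.0532), and old female 4, at 1102 CPM, lay within the young range of 1063 to 1161 CPM. Ifitm6 gave -0.19 ± 0.12 (edgeR adjusted p = 0.389). In males no score gene passed. Chil3 gave -0.62 ± 0.45 (adjusted p = 0.650), Fn1 -0.60 ± 0.14 (adjusted p = 0.163) and Ifitm6 -0.29 ± 0.20 (adjusted p = 0.629, edgeR). That comparison called 0% of 5655 genes with edgeR, and 22 genes with DESeq2. Old male 3, which held the highest share of high-scoring cells among old males, also had the highest male Chil3, at 2623 CPM. The other old males were at 677, 743, 291 and 278 CPM. Chil3 is part of the score, so this share and this level are not independent. With a score without Chil3, the share was 8.08% in old male 3 and 12.1% in old male 1. The age differences of Chil3 differed between the sexes by 1.56 ± 0.55 on the log2 scale, which did not pass (edgeR sex by age term, adjusted p = 0.883), in a fit that called 0.0225% of 8874 genes. In such sums more cells with a transcript and more of it per cell cannot be told apart.

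**Figure D2:**
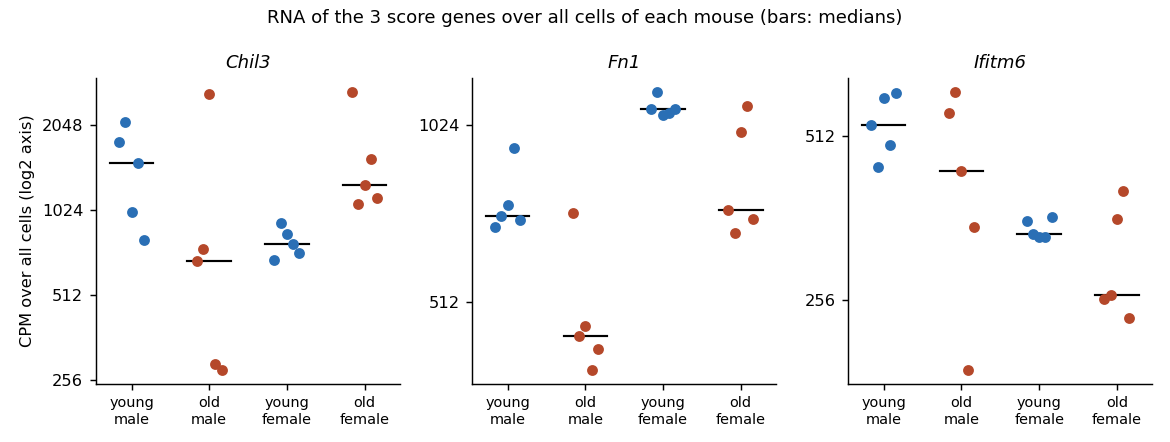
RNA of the 3 score genes over all cells of each mouse (y axis, CPM on a log2 axis), with bars at the group medians. Chil3 is higher in all 5 old females than in any young female, and old male 3 stands at 2623 CPM above the other old males.

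Compared with the other cells of the same mice, the high-scoring cells were low in RNA of the cell cycle and of primary granules. Male mice with fewer than 5 high-scoring cells were left out, which left 7 males (2 old and 5 young), and all 10 females were used. As the cells were chosen on RNA, the ratios are a description. Of 7194 genes at 10 CPM or more, 93 (1.29%) were higher and 1173 (16.3%) lower in the high-scoring cells of all 7 males. Of 7630 genes, 741 (9.71%) were higher and 1673 (21.9%) lower in all 10 females. All 17 S phase genes were lower in every mouse of both sexes, with a median log2 ratio of -2.82 in males and -3.03 in females, beside medians over all genes of -0.35 and -0.07. Of 19 genes of G2 and mitosis, 14 were lower in every male and 17 in every female. Rrm2, a subunit of the reductase that makes deoxynucleotides, was at a median of 14.7 CPM in high-scoring and 242 CPM in other cells of females. Top2a, the topoisomerase that untangles replicated DNA, was at 56.0 and 416 CPM.

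The primary granule genes of NeuMo gave the same picture. Of 8 genes, 6 were lower in every male and 7 in every female. Elane, neutrophil elastase, ranged from 102 to 164 CPM in high-scoring cells of the 10 females and from 2089 to 2922 CPM in the other cells. Prtn3 (proteinase 3) had medians of 215 and 2870 CPM, Mpo (myeloperoxidase) 55.9 and 1089 CPM, Ctsg (cathepsin G) 40.5 and 788 CPM, and Ms4a3, a membrane protein of granulocyte and monocyte progenitors, 7.39 and 159 CPM. No mouse's high-scoring cells reached the level of any mouse's other cells for these genes in females. The lowest ratios of both sexes were led by Rrm2, Ms4a3, Elane, Tyms, Top2a, Ctsg, Asf1b, Mcm6, Pbk and Cdca7, of which all but Ms4a3, Elane and Ctsg act in DNA replication or division.

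Genes of mature Ly6C-high cells outside the score were higher. Of the 7 such genes measured, 6 were higher in the high-scoring cells of every male and all 7 in those of every female, with median log2 ratios of 0.71 and 1.18. Lyz2 had a median of 41448 CPM in high-scoring and 23002 CPM in other cells of females. Cybb, the catalytic chain of the phagocyte NADPH oxidase, was at 1537 and 776 CPM, and Itgam at 246 and 103 CPM. Wfdc17, a small secreted protein, was at 644 and 277 CPM in females and at 1781 and 1040 CPM in males. Slfn1, a Schlafen family gene linked to growth arrest, was at 298 and 113 CPM in females, while in males its ratio ranged from -1.07 to 1.82 on the log2 scale and was not in 1 direction.

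Of the effector genes of the blood monocyte, more were higher in every mouse in the deeper female library than in the male library. The same held over all genes, of which 9.71% were higher in every female and 1.29% in every male. The oxidase subunits Cybb and Cyba were higher in every mouse of both sexes, and Ncf4 in every female, while the small GTPases Rac1 and Rac2 were lower in every male. The list medians were -0.18 in males and 0.36 in females. Of 9 measured genes of secreted matrix and coagulation proteins, 7 were higher in every female: Vcan (versican), Tgfbi, Thbs1 (thrombospondin), F5, F10, F13a1 (clotting factors) and Mmp8, a collagenase, which was also the only one higher in every male. Vcan was at a median of 173 CPM in high-scoring and 44.7 CPM in other cells of females. Of 16 Fc and pattern receptors, 10 were higher in every female, among them Fcgr3, Fcer1g, Msr1 (a scavenger receptor) and Cd14. In males 2 of 14 were higher (Fcer1g and Msr1), and Clec5a, a lectin receptor, was lower in every mouse of both sexes. Of 8 trafficking receptors, 2 were higher and 2 lower in every male, beside 1.29% and 16.3% of all genes. In females 4 were higher and 3 lower in every mouse, beside 9.71% and 21.9% of all genes. Ccr1 and Ccr2 were higher, and Cxcr4, the receptor that holds cells in the marrow, and Selplg, a selectin ligand, were lower in every mouse of both sexes, while S1pr4 was lower in every female. Ccr2 was at 1437 CPM in high-scoring and 886 CPM in other cells of females, and Cxcr4 at 49.1 and 103 CPM. Apoe-high genes were higher too, 3 of 8 in males (Apoe, Sirpb1c, Pla2g7) and 7 of 8 in females. Leaving out the 3 score genes, the 10 genes with the highest ratios over both sexes, ranked as a description among genes of at least 50 CPM in either class, so that a gene could enter through the high-scoring cells alone, were Tcp11l2 (at 61.6 against 26.6 CPM in females), Pla2g7, Gm9733, Tmcc1, Sirpb1c, Ifi204, Wfdc17, Gm5150, Ccl6 and Mmp8, the collagenase.

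The DCMo genes were mostly lower in the high-scoring cells of males and overlapped between the classes in females. Of 11 genes, 7 were lower in every male, beside 16.3% of all genes, and of 10 in females 3 were (H2-Eb1, H2-DMb1 and Cd209a), beside 21.9%. The list summed to 504 to 1425 CPM in high-scoring and 2177 to 4154 CPM in other cells of males, and to 853 to 10980 and 1341 to 9013 CPM in females. Cd74, the invariant chain that escorts MHC class II, was at a median of 145 CPM in high-scoring and 1275 CPM in other cells of males, with 324 and 802 CPM in females. H2-Ab1, a class II chain, had a male median of 0 CPM in high-scoring and 263 CPM in other cells. Old female 1 was an exception, with 6648 CPM of Cd74 in its 44 high-scoring cells. Of 15 transcription factors, 2 were higher and 4 lower in every male, beside 1.29% and 16.3% of all genes. In females 6 were higher and 3 lower in every mouse, beside 9.71% and 21.9% of all genes. Klf2 and Cebpb were higher and Irf8 and Myc lower in every mouse of both sexes. The RNA of cytosolic ribosomal proteins was lower for 72 of 82 genes in every male and 71 of 82 in every female. Its list medians were -0.44 in males and -0.29 in females, beside -0.35 and -0.07 over all genes. The male list thus lay close to the shift of all genes. In females this RNA summed to a median of 159114 CPM in high-scoring and 191734 CPM in other cells. High-scoring cells also held fewer UMIs, with medians of 7294 against 11254 in females and 3686 against 4657 in males, and the part of depth in the ratios themselves was not tested. With the cells chosen after each was thinned to 2000 UMIs, 731 genes were higher and 1484 lower in every female, and 36 and 954 in every one of 8 males.

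Fewer genes differed when cells were compared within those of low cell-cycle RNA. Of the high-scoring cells, 668 of 749 in females and 98 of 123 in males had low cell-cycle RNA. In this comparison, which was added after the data had been seen and left out the cycling cells of both classes, 12 of 7007 genes (0.171%) were higher and 459 (6.55%) lower in every male, and 38 of 7221 (0.526%) were higher and 219 (3.03%) lower in every female. The primary granule genes were then close to level, with list medians of -0.21 and -0.19 in males and females. Of the 7 mature genes, only Tmcc1 was higher in every male and 0 of 7 in every female, and the list medians were -0.12 and 0.11, beside -0.29 and -0.04 over all genes. Against all other cells the RNA matched the label "mature", but within cells of low cell-cycle RNA the mature genes outside the score did not set the high-scoring cells apart, so they are named here by their score genes. Chil3 and Fn1 kept log2 ratios of 1.59 and 0.86 in females, and Ifitm6 0.48, as the rule fixes. In males the ratios were 1.67 for Chil3, 0.76 for Fn1 and only 0.098 for Ifitm6. The Apoe-high genes turned, with list medians of -0.41 and -0.34, Apoe lower in every mouse of both sexes, and Gngt2, Fyb and AF251705 lower in every female. Of 9 genes of secreted matrix and coagulation proteins, 3 were higher in every female (Thbs1, F10 and Mmp8) and 0 lower, with Mmp8 at a log2 ratio of 0.51. In males 0 of 8 were higher, and Tgfbi was lower in every mouse. Of 9 trafficking receptors, Ccr1 was higher and Cx3cr1 and Selplg were lower in every female. In males 0 of 8 were higher, and Cd177 was lower in every mouse. The DCMo genes were lower, with 8 of 11 below the other cells in every male and 10 of 11 in every female and medians of -1.78 and -1.80. Of 12 genes of MHC class I and the immunoproteasome, 3 were lower in every male (H2-D1, B2m, Psmb8) and 7 in every female.

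**Figure D3:**
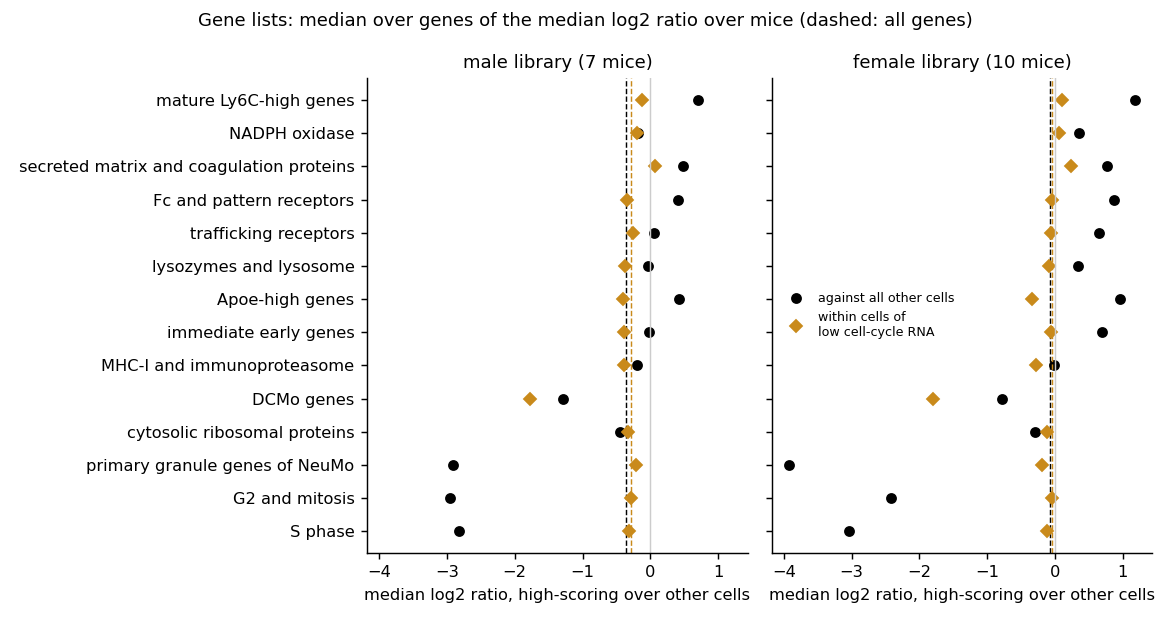
Median log2 ratio of high-scoring over other cells (x axis) for 14 gene lists (y axis), in 7 males and 10 females. Circles compare with all other cells, diamonds stay within cells of low cell-cycle RNA, and dashed lines give the median of all genes. S phase, mitosis and granule lists lie far below 0 only against all other cells, whereas the DCMo list lies lowest among the diamonds. The S phase and mitosis lists chose the cells of low cell-cycle RNA, so the place of their diamonds follows from that choice.

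The surface antibodies of the female library were not used in the score and were tested. The ratios nevertheless moved with the genes in the score. The high-scoring cells also held fewer RNA UMIs than the others. A comparison within a narrower range of UMI totals, added later, is given below for CD11b. The high-scoring cells carried less CD115, more CD11b and less MHC class II than the other cells of the same mice, while Ly6C, Flt3 and CD11c showed no difference past the threshold. Ly6C was called in opposite directions by other scores, at a log2 ratio of -0.14 without Chil3 (higher in 0 of 10 mice, adjusted p = 0.00293) and 0.11 without Ifitm6 (higher in 9 of 10 mice, adjusted p = 0.00781, exact permutation tests). CD115, the receptor for the growth factor CSF-1, was at 1.96 to 5.32 antibody UMIs per high-scoring cell over the 10 females (median 4.01) and at 3.83 to 8.41 (median 5.78) in the other cells. The log2 ratio was -0.60 ± 0.21 (SD, n = 10) and was below 0 in all 10 mice (exact sign-flip permutation test, p = 0.00195, the smallest that 10 mice allow, Benjamini-Hochberg adjusted p = 0.00586 over 6 antibodies). Csf1r RNA, in contrast, was higher in the high-scoring cells of every female. CD11b was at 49.7 to 87.0 UMIs per high-scoring cell and 45.4 to 55.7 in other cells, with a log2 ratio of 0.40 ± 0.14, higher in 10 of 10 mice (same exact permutation test, adjusted p = 0.00586). Among cells between the quartiles of the high-scoring cells' UMI totals, a setting added after the values had been seen, the CD11b ratio was -0.032 (adjusted p = 0.719, exact permutation test). MHC class II had a log2 ratio of -0.52 ± 0.55 and was higher in 1 of 10 mice (adjusted p = 0.0117, same exact permutation test), with the lowest value of -1.78 in old female 2. Scaled per hashtag UMI, the MHC class II ratio was -0.14 (adjusted p = 0.357), and by the median over cells -0.08 (adjusted p = 0.199, exact permutation tests). As a share of the UMIs of all 6 antibodies it was -0.40, higher in 0 of 10 mice (adjusted p = 0.00391, exact permutation test). This call thus depended on which scaling was used and rested on the mean. Ly6C, at a median of 549 UMIs per high-scoring cell, had a log2 ratio of 0.018 ± 0.085, Flt3 0.070 ± 0.14 and CD11c -0.11 ± 0.46 (adjusted p = 0.547, 0.217 and 0.547, exact permutation test). Per hashtag UMI, Ly6C (0.23) and Flt3 (0.30) were called higher, each in 10 of 10 mice (adjusted p = 0.00293, exact permutation test). CD11c was called lower with cells chosen after thinning to 2000 UMIs (-0.27, adjusted p = 0.0410) and with a score without Chil3 (-0.26, adjusted p = 0.0328, exact permutation tests).

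Some antibody ratios were different within cells of low cell-cycle RNA, a setting that leaves out cells of both classes, and that change was not itself tested. Within cells of low cell-cycle RNA, Ly6C was higher on the high-scoring cells of 10 of 10 females, by 0.20 ± 0.089 on the log2 scale (exact permutation test, adjusted p = 0.00391), with 554 antibody UMIs per cell against 480. CD11b then gave 0.035 ± 0.16 (adjusted p = 0.642, exact permutation test), while the log2 ratios of CD115 (-0.32) and MHC class II (-0.82) were below 0 in 10 of 10 mice (adjusted p = 0.0039, exact permutation test). The MHC class II ratio was lower in old than in young females, with means of -0.86 ± 0.53 and -0.17 ± 0.33 (n = 5 each). This comparison was added after the values had been seen and did not pass correction (exact permutation p = 0.0317, adjusted p = 0.190 over 6 antibodies). Compared by age within the high-scoring cells, 0 of 6 antibodies passed, and the smallest unadjusted p was 0.159 for Ly6C (exact permutation test, all 6 adjusted p = 0.913). With a score without Chil3, Ly6C was lower in old females by a log2 difference of -0.20 (adjusted p = 0.0476, exact permutation test).

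**Figure D4:**
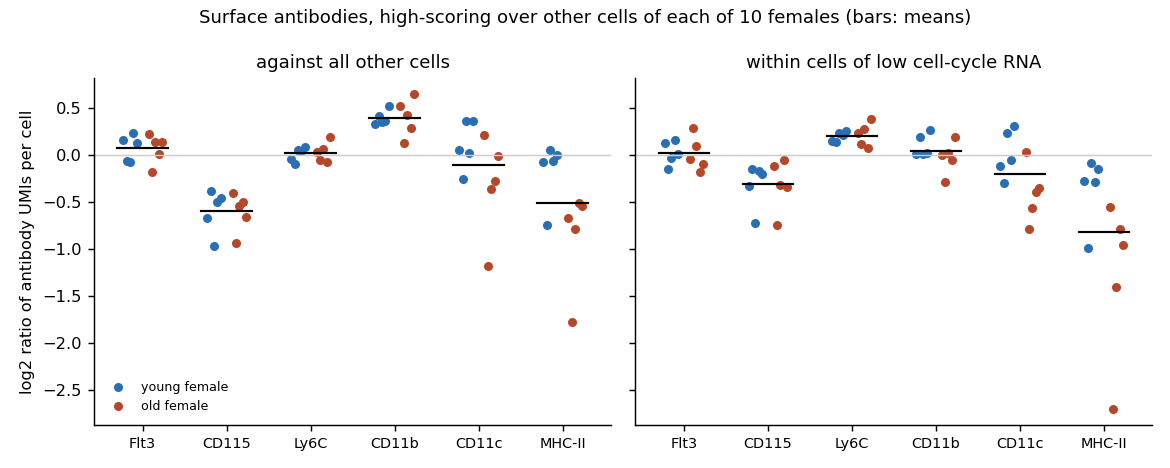
Log2 ratio of antibody UMIs per cell (y axis), high-scoring over other cells of each of 10 females, for 6 antibodies, against all other cells (left) and within cells of low cell-cycle RNA (right). Bars are means. CD115 lies below 0 in all mice in both panels, CD11b lies above 0 in all mice on the left and in 7 of 10 on the right, and Ly6C in 6 of 10 on the left and in all on the right.

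Within the high-scoring cells of females, genes of MHC class I, the Fc receptor gene Fcgr1 and versican were higher with age, and immediate early genes were lower. Old and young females were compared on the summed counts of 24 to 167 high-scoring cells per mouse with the edgeR quasi-likelihood test. CPM values by age within these cells use library sizes scaled over these sums alone, and so differ from those above. Of 5040 genes tested, 67 (1.33%) were higher and 34 (0.675%) lower in old females. Vcan, with Ccl3 the lowest adjusted p, was at 313, 254, 216, 289 and 388 CPM in old and 119, 119, 75.2, 138 and 80.4 CPM in young females. No old female overlapped the young range, and the log2 fold change was 1.32 ± 0.15 (SE, edgeR adjusted p = 2.49e-05). Fcgr1, the high-affinity Fc receptor for IgG, was at 132 to 187 CPM in old and 81.0 to 96.1 CPM in young females (0.85 ± 0.13, edgeR adjusted p = 0.000465), and Clec4e, a lectin that senses mycobacterial lipids, also rose (0.95 ± 0.20, edgeR adjusted p = 0.0104). They were the only 2 called of 13 Fc and pattern receptors tested, of which 6 had fold changes above 0. Ly6c2, which encodes the sorting antigen Ly6C, rose by 0.30 ± 0.068 (edgeR adjusted p = 0.0129).

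Of 12 genes of MHC class I and the immunoproteasome, which supplies peptides to it, 6 rose and 0 fell, and the list's median was 0.33, beside -0.01 over all genes tested. H2-K1 was at 1171 to 1974 CPM in old and 900 to 1056 CPM in young females, without overlap (0.56 ± 0.10, edgeR adjusted p = 0.00236). H2-D1 (0.31), B2m (0.35), Psmb8 (0.44), Psmb9 (0.69) and the class Ib gene H2-Q7 (1.85 ± 0.41) also rose, but H2-Q7 was not called without young female 4 (edgeR adjusted p = 0.0512). Of 7 DCMo genes tested, 2 rose. Cd74 was at 6828 CPM in old female 1 and at 343, 491, 734 and 327 CPM in the other old females, against 162 to 397 CPM in the young. Its log2 fold change of 2.58 ± 0.60 (edgeR adjusted p = 0.0192) rested in size on that mouse, since without it the value was 0.79 (edgeR adjusted p = 0.0122). Without 1 of young females 1, 2, 3 or 5, Cd74 was not called (highest edgeR adjusted p = 0.0851). AW112010, an interferon-inducible transcript, was at 549, 160, 100, 198 and 166 CPM in old and 36.3, 73.0, 40.5, 97.1 and 46.3 CPM in young females. Its groups did not overlap, its fold change was 1.76 ± 0.35 (edgeR adjusted p = 0.00569), and it was called in 25 of 25 settings. Among the called genes with the highest fold changes were also Cd244, a receptor of the SLAM family (1.66 ± 0.26, edgeR adjusted p = 0.000465), and Tppp3, a tubulin-binding protein (1.98 ± 0.43, edgeR adjusted p = 0.0119). Cd244 was called in 21 of 21 settings and Tppp3 in 18 of 22, with fold changes of Tppp3 from 0.65 to 2.45.

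Of 10 immediate early genes, which switch on within minutes of stimulation, 6 fell and 0 rose with age in female high-scoring cells, with a list median of -0.50. Jun was at 175, 192, 131, 188 and 93.3 CPM in old and 329, 358, 347, 273 and 327 CPM in young females, without overlap (-1.05 ± 0.13, edgeR adjusted p = 4.32e-05). Fos (-0.53), Ier5 (-0.70), Ier2 (-0.31), Btg2 (-0.43) and Zfp36 (-0.55) also fell. Of 11 transcription factors, 2 fell: Klf4, at 122 to 179 CPM in old and 249 to 388 CPM in young females (-0.95 ± 0.12, edgeR adjusted p = 3.49e-05), and Irf8 (-0.50 ± 0.093, edgeR adjusted p = 0.00287), both of which take part in monocyte development. The largest falls among called genes were those of Ccl3, an inflammatory chemokine (-2.25 ± 0.27, edgeR adjusted p = 2.49e-05), Hpgd, which degrades prostaglandins (-1.36 ± 0.20, edgeR adjusted p = 0.000212), Ptger4, a receptor for prostaglandin E2 (-1.26 ± 0.27, edgeR adjusted p = 0.0119), Trim44 (-1.16 ± 0.28, edgeR adjusted p = 0.0245) and Gm1673 (-1.11 ± 0.20, edgeR adjusted p = 0.002). Over the alternative settings Trim44 was called in 9 of 18, Ptger4 in 17 of 21, Hpgd in 23 of 25, Gm1673 in 23 of 24 and Ccl3 in 23 of 23. Ccl3 was at 4.45 to 16.1 CPM in old and 41.4 to 92.6 CPM in young females.

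Of the 7 mature genes outside the score, 0 passed in females, with Lyz2 the nearest (-0.18 ± 0.050, edgeR adjusted p = 0.0598). Of 15 genes of G2 and mitosis tested, 0 passed, although all 15 had fold changes above 0, with a median of 1.07. Old females 1 and 2 were the highest for these genes, with Mki67 at 161 and 272 CPM against 62.8 to 70 CPM in the other old and 19.2 to 78.0 CPM in the young females. Without old female 1, 85 genes were called by age in high-scoring cells, without old female 2 121, and within cells of low cell-cycle RNA 110. Of 82 ribosomal protein genes, 0 passed.

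**Figure D5:**
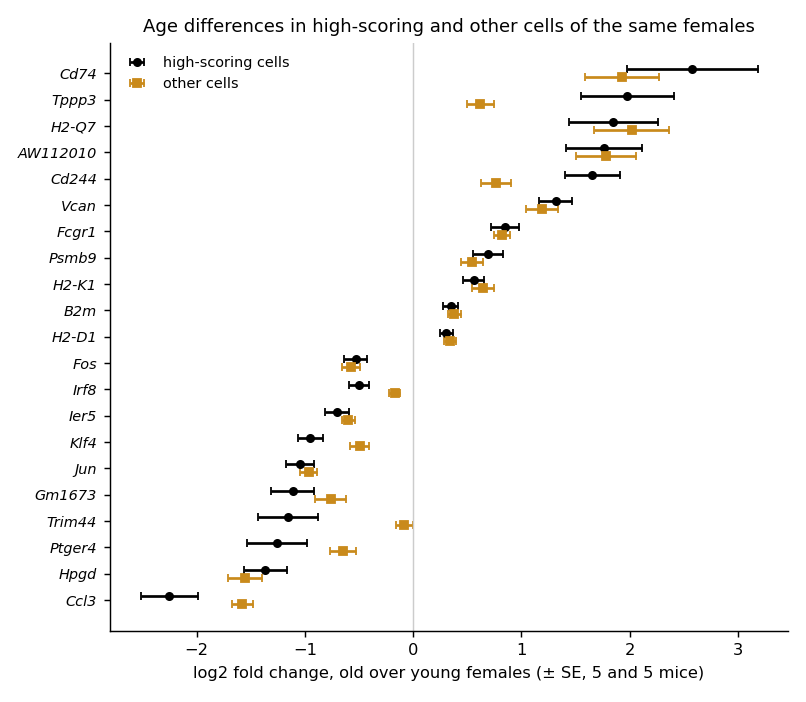
Log2 fold change of old over young females with its SE (x axis) for 21 genes (y axis), in high-scoring cells and in the other cells of the same 10 mice. Cd74, Tppp3, H2-Q7, AW112010 and Cd244 are the highest and Ccl3 is the lowest in high-scoring cells, at 2.58 to 1.66 and -2.25.

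The other cells of the same females gave 304 of 10297 genes (2.95%) higher and 284 (2.76%) lower with age, on sums over more cells and UMIs. Of the mature genes outside the score, Lyz2 (-0.25), Cybb (-0.20) and Tmcc1 (-0.27) were called lower there. Their edgeR adjusted p were 0.0253, 0.0133 and 0.0155, and none of the others was called. In the high-scoring cells Cybb was also at -0.20 but did not pass (edgeR adjusted p = 0.0947). For the genes named above, the fold changes in the other cells were 1.93 for Cd74, 2.02 for H2-Q7, 1.78 for AW112010, 1.19 for Vcan, 0.82 for Fcgr1, -1.58 for Ccl3, -0.96 for Jun and -1.55 for Hpgd. The values for Klf4 (-0.49), Irf8 (-0.17), Cd244 (0.76), Tppp3 (0.62) and Trim44 (-0.08) were closer to 0 than in the high-scoring cells. The difference itself was tested as a class by age term, with a term per mouse. It called 0% of 8939 genes in females (549 at an unadjusted p under 0.05, lowest adjusted p of 0.0552 for Stmn1, and 0 with DESeq2), and 0% of 5173 in males (244 at an unadjusted p under 0.05, and 0 with DESeq2). For Klf4 this term was -0.50 (edgeR adjusted p = 0.166), for Irf8 -0.32 (0.405) and for Trim44 -1.08 (0.365), so none of them was shown to differ between the classes.

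In males the high-scoring cells of 2 old mice (15 and 11 cells) were compared with those of 5 young mice. Of 1047 genes tested, 2 (0.191%) were higher and 0% were lower in old males with the edgeR quasi-likelihood test, 0 with DESeq2, and 63 had an unadjusted p under 0.05. AW112010 was at 303 and 533 CPM in old and 167, 56.3, 42.9, 147 and 129 CPM in young males (1.86 ± 0.36, edgeR adjusted p = 0.00693). Wfdc17 was at 2864 and 2924 CPM in old males and at 1630 CPM as the median of the young (0.70 ± 0.15, edgeR adjusted p = 0.0130). AW112010 was called in 15 of 21 alternative settings and was not called without old male 3 (edgeR adjusted p = 0.407), a fit with 1 old mouse, which is assumed to vary like the young mice. Wfdc17 was called in 11 of 22. The next lowest p belonged to Lyz2 (-0.41 ± 0.12), Tm6sf1 (-1.48 ± 0.42) and Gngt2 (0.94 ± 0.28), which did not pass (edgeR adjusted p = 0.292). Of 9 immediate early genes, 0 passed and 0 had a fold change above 0, with a median of -0.55. The other cells of the 10 males gave 0% of 5502 genes in either direction (490 at an unadjusted p under 0.05, and 3 with DESeq2). A sex by age term within the high-scoring cells called 0% of 4252 genes (230 at an unadjusted p under 0.05, and 0 with DESeq2).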

How the data were processed

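The members and gene lists were chosen with earlier results of these data known. The authors deposited whole-number UMI counts per gene, antibody and barcode for 1 library per sex (10 hashtags each). The submitters' processing notes name STAR 2.5.1, mm10 and Cell Ranger 4.0.0, while the file headers give other Cell Ranger versions. Cells were kept with over 200 genes, under 5% mitochondrial UMIs and a leading hashtag of at least 70%. Doublets of different mice were removed by that hashtag cut, and no doublet caller was run. UMIs were summed per mouse over the high-scoring cells (24 to 167 per female, 166681 to 1339498 UMIs; 1 to 24 per male with any, 4127 to 106776 UMIs) and over the other cells (2656807 to 20656719 UMIs per female, 326459 to 1053155 per male). Old and young mice were compared with edgeR 4.0.16 (quasi-likelihood test, TMM factors, filterByExpr, Benjamini-Hochberg adjusted p under 0.05, R 4.3.3), and DESeq2 1.42.0 was an alternative. Male mice with under 5 high-scoring cells were left out, so that "every mouse" means 7 males and 10 females. CPM used TMM-scaled totals throughout, with factors taken over the sums in each comparison, so values of the same cells can differ between comparisons. Shares and antibodies were compared with exact permutation tests (SciPy 1.17.1). The score genes were not tested within the high-scoring cells. Named genes were the mature list, the 10 highest and 10 lowest ratios of at least 50 CPM with 1 direction in every mouse, the 5 highest and 5 lowest fold changes called by age (in males the 5 lowest p), and examples of each list. Alternatives changed the cut, the hashtag minimum, the score genes, depth, filter, normalization and test, or left out 1 mouse. The fits were tested on simulated data. The limit given for a count of 0 covers counting error only.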

Additional observations from a re-analysis of the deposited data

Results flagged for a closer look

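Of 66 groups tested with Dixon's criterion, 10 held a mouse far from the rest, where chance gives about 1 in 20. Over all cells, Chil3 was at 2623 CPM in old male 3 (nearest old male 743), and Fn1 was at 725 CPM in old male 1 (nearest 466), 934 CPM in young male 4 (nearest 747) and 1161 CPM in young female 2 (nearest 1089). In high-scoring cells, Cd74 was at 6828 CPM in old female 1 (nearest 734), and AW112010 was at 549 CPM in the same mouse (nearest 198). The log2 ratio of high-scoring to other cells in old female 2 was -1.78 for the MHC class II antibody and -1.18 for CD11c. T and NK cell markers summed to 507 CPM in the high-scoring cells of old female 2 (nearest 10.5) and to 128 CPM in those of young female 4 (nearest 19.8).

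The age difference in the share of high-scoring cells differed between the sexes, by 9.12 percentage points (exact permutation p = 0.0256), but the call was lost in 5 settings, among them 3.30 points without Chil3 in the score (p = 0.507) and 4.28 points with the highest 5% of cells (p = 0.114, exact permutation tests). The sexes were separate libraries and experiments, which cannot be told apart from sex.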

How the results depend on the processing

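The lower share in old males kept its direction in every setting but lost its call in several: -4.46 points with the highest 5% of cells (adjusted p = 0.0952), -7.86 without Chil3 in the score (0.111), -4.45 without Fn1 (0.151), -9.73 without Ifitm6 (0.0635) and -12.6 within low cell-cycle RNA (0.0794), all by exact permutation tests. With a replicate block it was -9.10 (0.125), but the 32 assignments of that test cannot pass the threshold. Leaving out 1 mouse gave -10.8 to -8.01, and the call was lost without young male 2, 4 or 5. The female difference was -4.56 without Chil3, 3.87 without Fn1 (adjusted p = 0.119 and 0.127, exact permutation tests) and -1.32 to 1.0 without 1 mouse. The sex difference lost its call at 4.28 (highest 5%), 8.33 (hashtag 90%), 3.30 (without Chil3) and 8.35 (without cells of other types), and spanned 7.79 to 10.8 without 1 mouse, losing it without old female 4.

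Genes called by age in male high-scoring cells numbered 1 with the highest 5%, 5 with the highest 20%, 0 without Chil3 or Ifitm6, 1 without cells of other types, 1 with the cut within each mouse, 1 with no filter, 0 with DESeq2 and 0 with the replicate block, whose 1 residual degree of freedom makes it uninformative, and 1 to 11 without 1 mouse. The 11 were found without old male 1 and 3 without old male 3, fits with 1 old mouse, which is assumed to vary like the young. In females they numbered 42 (5%), 179 (20%), 57 (hashtag 90%), 231 (no filter) and 61 (DESeq2), 127 with the replicate block, and 64 to 121 without 1 mouse. In other cells of males they were 72 with no filter, 3 with DESeq2 and 0 to 17 without 1 mouse, and in other cells of females 283 to 801. Over all cells of males they were 98 with no filter, 22 with DESeq2, 1 with the replicate block and 0 to 38 without 1 mouse. Over all cells of females they were 257 to 821 without 1 mouse. The class by age term called in males 1 gene (5%), 7 (20%), 1 (hashtag 90%), 1 (thinned to 2000 UMIs), 4 (without Chil3), 1 (without Fn1), 2 (without Ifitm6), 1 (without cells of other types), 1 (RLE factors) and 0 to 2 without 1 mouse. In females it called 3 (hashtag 50%), 2 (hashtag 90%), 12 (without Chil3), 6 (without Fn1), 15 (without cells of other types), 27 (no filter) and 0 to 11 without 1 mouse. The sex by age term called 2 with no filter and 0 to 1 without 1 mouse.

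Fn1 over all cells was called in females at -0.38 with no filter and -0.41 with the replicate block (-0.50 to -0.31 without 1 mouse), and in males at -0.61 with no filter and -0.60 with DESeq2 (-0.79 to -0.51). Without Chil3 in the score, 5 antibodies were called and Ly6C was at -0.14, while without Ifitm6 it was called at 0.11 and per hashtag UMI at 0.23. CD11b was at -0.032 among cells between the quartiles of depth of the high-scoring cells. Against the other cells, genes higher in every male numbered 15 (5%), 36 (thinned), 46, 35 and 59 (without Chil3, Fn1 or Ifitm6), 60 (without cells of other types), 20 (cut within each mouse, which brings in all 10 males) and 12 (low cell-cycle RNA), and genes lower 744 and 459 in the last 2. In females genes higher numbered 387 (5%), 1369 (20%), 200 (hashtag 90%) and 38 (low cell-cycle RNA), and genes lower 1050 and 219 in the last 2. Same-numbered mice did not deviate together (r from -0.06 to 0.07), so the numbers do not pair them. The low cell-cycle and middle-depth settings, and all settings for RNA against the other cells, were chosen after seeing the data. Among the main results, 284 alternatives were classed as unchanged, while 72 moved a count or value, 14 lost a call and 7 gained one. The unchanged class holds counts near the main count, whichever genes or antibodies were called. It also holds values with the same call, including uncalled values that changed sign within their spread. The causes were not tested.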
